A study of Arabidopsis thaliana with 6 samples.

Results

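The circadian clock of Arabidopsis thaliana, a small crucifer used as a model plant, was followed here through 9 of its core genes in seedlings exposed to traffic noise or to control white noise. The genes were found by exact symbol among the named rows of the count tables, and each of the 9 had 1 row of 32921. They fall into 4 morning components (CCA1, LHY, PRR9 and PRR7) and 5 components expressed later in the day (PRR5, TOC1, GI, ELF3 and ELF4), called evening components below. The traffic noise group held 3 libraries of wild-type whole seedlings exposed for 48 h to recorded city traffic averaging 75 dB, and the control group 3 libraries of the same genotype exposed for 48 h to white noise averaging 10 dB. Plates of both groups were sealed and wrapped in foil against light inside a sound-proof facility. The groups differ in the kind of sound and in its loudness, which cannot be told apart. The labels call the exposed material seeds and the harvested tissue whole seedlings, and they give no age. The labels give 1 exposure time and no clock time of harvest, so levels at 1 point are described and no rhythm. Whether the replicates are separate plates or seed lots is not given, so the p-values reflect the spread among 3 libraries a group, which may be technical.

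The plant clock is a set of repressors that act on each other in turn over the day. CCA1 and LHY, MYB-related transcription factors that accumulate around dawn, repress genes of the evening, many of which carry a short promoter motif called the evening element. The pseudo-response regulators PRR9, PRR7, PRR5 and TOC1 follow one another from morning to night and repress CCA1 and LHY. ELF3 and ELF4 form the evening complex with LUX, which represses morning-phased and growth genes at night. GI is a large plant-specific protein that stabilises the F-box protein ZTL and links the clock to flowering time. In seedlings, light and temperature cycles set the phase of these genes.

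The 250 bases before each annotated gene start were searched for 3 motifs of clock and light-responsive promoters. These windows are taken from RefSeq's TAIR10.1 assembly. The G-box, CACGTG, reads the same on both strands and is bound by basic helix-loop-helix and bZIP factors. It stood in the window of each of the 4 morning components, and in the window of 0 of the 5 evening components, against 6.49% of the windows of 27443 nuclear protein-coding genes. The evening element, AAAATATCT, was searched on both strands. It was found in 2 of the 5 evening components (TOC1 and PRR5) and in 0 of the 4 morning components, against 2.36% of all windows. The CCA1-binding site was searched only as AAAAATCT, on either strand, and other forms of it were not searched. As AAAAATCT it was found before PRR5 alone among the 9 genes and in 6.69% of all windows. In PRR5 it did not overlap the evening element. GI, ELF3 and ELF4 held none of the 3 motifs, as spelled here, in this window. The ELF4 window opens with the evening element less its first letter, so its edge may cut a match. A match is a description of the letters, not evidence of binding. The upstream windows of 3 morning genes with a G-box and of the abundant evening gene with an evening element are shown because the results turn on these genes. Each runs 5′ to 3′ towards the gene start, with the motif in capitals (the G-box in CCA1, LHY and PRR7, and the reverse complement of the evening element in TOC1). The windows lie at chr2:19245341-19245590 on the plus strand, chr1:37872-38121 on the minus strand, chr5:642031-642280 on the minus strand and chr5:24674713-24674962 on the plus strand.
CCA1: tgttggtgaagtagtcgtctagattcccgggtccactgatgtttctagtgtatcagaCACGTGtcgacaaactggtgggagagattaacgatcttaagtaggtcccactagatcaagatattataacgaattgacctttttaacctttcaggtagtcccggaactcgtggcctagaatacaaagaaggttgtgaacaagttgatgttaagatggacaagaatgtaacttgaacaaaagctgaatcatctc
LHY: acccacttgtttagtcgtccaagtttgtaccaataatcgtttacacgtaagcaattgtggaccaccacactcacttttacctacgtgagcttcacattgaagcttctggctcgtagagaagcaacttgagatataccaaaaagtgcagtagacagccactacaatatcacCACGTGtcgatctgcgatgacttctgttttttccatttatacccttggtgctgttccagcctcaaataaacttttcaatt
PRR7: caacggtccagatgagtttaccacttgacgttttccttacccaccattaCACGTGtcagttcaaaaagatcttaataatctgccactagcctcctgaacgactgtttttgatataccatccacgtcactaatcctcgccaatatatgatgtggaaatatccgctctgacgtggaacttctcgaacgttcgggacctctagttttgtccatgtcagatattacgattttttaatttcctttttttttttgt
TOC1: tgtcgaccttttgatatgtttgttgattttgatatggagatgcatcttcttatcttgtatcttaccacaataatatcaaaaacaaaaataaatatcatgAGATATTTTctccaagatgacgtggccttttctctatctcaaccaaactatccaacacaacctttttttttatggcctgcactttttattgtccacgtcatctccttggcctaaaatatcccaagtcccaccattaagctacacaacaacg

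**Figure D1:**
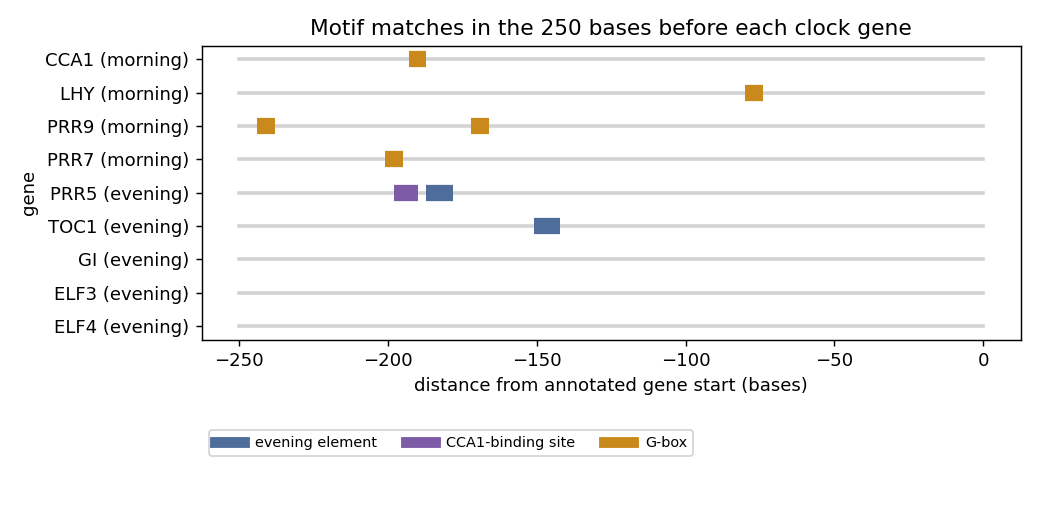
Motif matches in the 250 bases before the annotated start of each of the 9 clock genes, with distance from the start in bases on the x axis and 1 row per gene. The G-box appears in the 4 morning rows, the evening element in PRR5 and TOC1, and the CCA1-binding site, searched only as AAAAATCT, in PRR5.

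The libraries were made with a kit that reads the 3′ ends of polyadenylated transcripts, so a level does not scale with transcript length. Levels are given in CPM, the share of a library's counts that fall on a gene, scaled by TMM factors. Totals on named rows ran from 19782106 to 20605708 counts in the traffic noise libraries and from 17540009 to 20780363 in the control libraries, and 3 counts, taken as the floor in a library, equal 0.144 to 0.171 CPM. Control replicate 3 stood apart: 18.1% of the 19112 rows tested were at 0 in it, against 2.49% to 3.59% in the other libraries. Log2 fold changes without it are given for CCA1, LHY, PRR7, TOC1, ELF3 and ELF4. The LHY over TOC1 ratio, the summary of morning against evening genes and the medians of other clock lists are also given without it. Single genes of those other lists are given with it only. Rows of the organelle genomes took 16.1% of the counts of control replicate 1, and 11.7% or less in each other library. Root markers (PIN2, SCR, SHR and PLT1) summed to 78.5 to 86.9 CPM in traffic noise and 57.6 to 90.8 CPM in control, with PLT1 at 0 in traffic noise replicate 2. Shoot markers (STM, BP and AS1) summed to 157 to 166 CPM in traffic noise and 138 to 159 CPM in control. Photosynthetic markers (RBCS1A and LHCB1.3) summed to 2660 to 3350 CPM in traffic noise and 2280 to 4010 CPM in control, and seed markers (OLEO1, CRA1 and EM6) to 1.97 to 3.23 CPM in traffic noise, with CRA1 at 0 throughout, and 0 to 6.17 CPM in control. Of these markers LHCB1.3, a light-harvesting gene of a family known for its clock-driven rhythm, had 1310, 1120 and 1290 CPM in traffic noise, against 366, 883 and 700 CPM in control, without overlap. RBCS1A, a gene for the small subunit of Rubisco, had a lower mean after traffic noise, with 2040, 1950 and 1370 CPM in traffic noise, against 1910, 2480 and 3310 CPM in control, and its groups overlap. The part of these markers in the values of the clock genes was not tested. In whole seedlings, fewer cells of a type and less RNA per cell cannot be told apart.

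None of the clock genes tested passed the threshold between the groups. Of the 9, 7 had enough counts to test, 5 with a higher mean after traffic noise (CCA1, PRR7, TOC1, GI and ELF4) and 2 with a lower one (LHY and ELF3). In edgeR's quasi-likelihood test, adjusted by Benjamini-Hochberg over all 19112 rows tested, 0 of 7 had an adjusted p under 0.05, and the adjusted p-values ran from 0.644 to 0.988. In the whole table the test called 2 rows, or 0.0105%. At an unadjusted p under 0.05, 1 of the 7 was higher, ELF4 (edgeR unadjusted p = 0.0408), and 0 were lower, where 3.48% of all rows tested were higher and 3.98% lower. DESeq2 gave an adjusted p for 2 of the 7, LHY (0.557) and PRR7 (0.597), and called 5% of the 4322 rows for which it gave one. In 2 of the 7, CCA1 and TOC1, every traffic noise library lay above every control library, a pattern found in 8.99% of all rows tested, and in 0 of the 7 did every traffic noise library lie below, against 7.39%. An adjusted p that misses the threshold does not show that the levels were alike, since the spread was wide: the common biological coefficient of variation was 0.757.

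**Figure D2:**
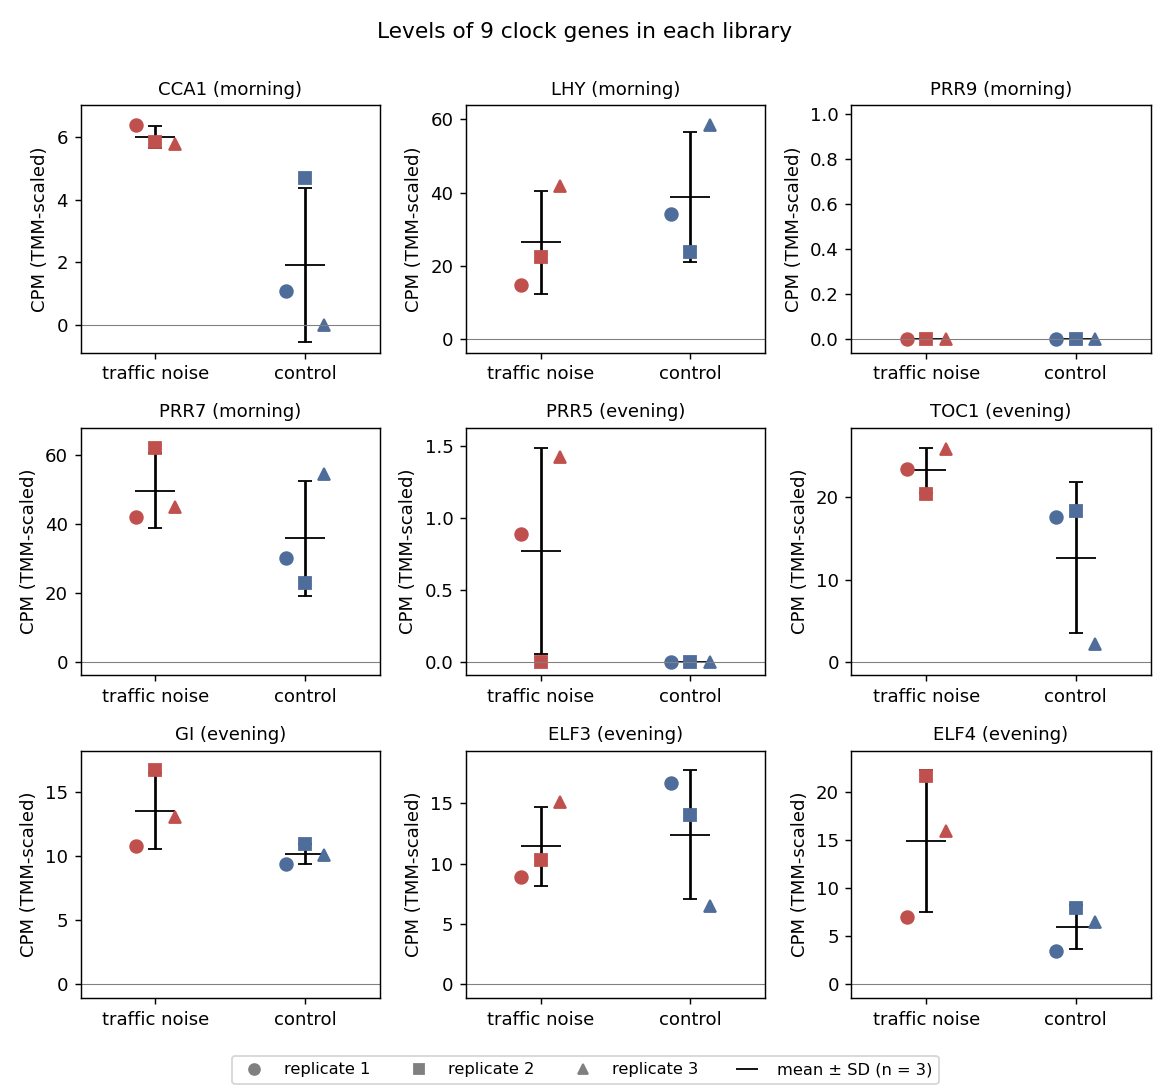
TMM-scaled CPM of the 9 clock genes, 1 panel per gene, with traffic noise libraries on the left and control libraries on the right of each panel; symbols mark the replicate number, bars the mean and SD (n = 3). CCA1 and TOC1 do not overlap between groups, PRR9 is at 0 throughout, and control replicate 3 holds the highest LHY value (58.4 CPM) and the lowest TOC1 value (2.13 CPM).

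Of the dawn factors, LHY was the more abundant and CCA1 the more even after traffic noise. CCA1 (AT2G46830, chromosome 2) had 6.40, 5.86 and 5.77 CPM in traffic noise replicates 1 to 3, against 1.08, 4.70 and 0 CPM in control replicates 1 to 3. The traffic noise libraries thus lay close together and above all control libraries, which spread from none to nearly the traffic noise level. The means were 6.01 ± 0.344 CPM in traffic noise and 1.93 ± 2.46 CPM in control (SD, n = 3 each), and the log2 fold change was 1.64 ± 1.40 (fitted value ± SE, edgeR adjusted p = 0.930). In raw counts this rests on 130, 119 and 118 reads in traffic noise and 22, 86 and 0 in control. Without control replicate 3 the log2 fold change was 1.06 ± 0.78 (edgeR adjusted p = 0.798), and without control replicate 2, the control library nearest the traffic noise group, it was 3.45. The part that the many empty rows of control replicate 3 have in its CCA1 value was not tested.

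LHY (AT1G01060, chromosome 1), the close relative of CCA1, had 14.9, 22.4 and 41.9 CPM in traffic noise, against 34.2, 23.9 and 58.4 CPM in control. The groups overlap, with traffic noise replicate 3 above 2 of the control libraries. Its means were 26.4 ± 13.9 CPM in traffic noise and 38.8 ± 17.7 CPM in control (SD, n = 3 each), with a log2 fold change of -0.56 ± 0.44 (edgeR adjusted p = 0.915). Without control replicate 3 that value was -0.14 ± 0.41 (edgeR adjusted p = 0.991), and without traffic noise replicate 3 it was -1.06. So the sign was negative in each setting tried, while its size depended on single libraries.

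CCA1 and LHY, which act as partners and partly substitute for each other, did not keep a fixed ratio across the libraries. CCA1 made up 30.1% of the reads of the pair in traffic noise replicate 1 (95% Wilson interval 26.0 to 34.6), 20.7% in replicate 2 (17.6 to 24.2) and 12.1% in replicate 3 (10.2 to 14.3). In control it made up 3.06% in replicate 1 (2.03 to 4.58) and 16.4% in replicate 2 (13.5 to 19.9). In control replicate 3 it made up 0 of 1014 reads (0 to 0.377%). The ranges overlap, since control replicate 2 lies above traffic noise replicate 3. These intervals and floors cover counting error only, as reads without molecular identifiers are not independent molecules.

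PRR7 (AT5G02810, chromosome 5), the most abundant of the pseudo-response regulators, had 42, 62.0 and 44.8 CPM in traffic noise, against 30.2, 22.7 and 54.4 CPM in control. Control replicate 3 reaches into the traffic noise range, and the other control libraries lie below it. The means were 49.6 ± 10.8 CPM in traffic noise and 35.8 ± 16.6 CPM in control (SD, n = 3 each), with a log2 fold change of 0.47 ± 0.35 (edgeR adjusted p = 0.898). Without control replicate 3 the log2 fold change was 0.91 ± 0.30 (edgeR adjusted p = 0.434), the smallest adjusted p that this gene had in any setting, and without control replicate 2 it was 0.23. PRR9 (AT2G46790, chromosome 2), the earliest of the family in the day, had 0 counts in all 6 libraries and was not tested. Its upstream window was the 1 with 2 G-boxes.

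PRR5 (AT5G24470, chromosome 5), a regulator of the afternoon, had 18, 0 and 29 counts in traffic noise, against 0, 0 and 0 in control. These are 0.886, 0 and 1.42 CPM in traffic noise. The gene was detected in 2 of 6 libraries, too few to pass the filter on low counts, and it was not tested.

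TOC1 (AT5G61380, chromosome 5), the pseudo-response regulator of the evening and a repressor of CCA1 and LHY, had 23.5, 20.4 and 25.9 CPM in traffic noise, against 17.6, 18.3 and 2.13 CPM in control. Every control library lay below the lowest traffic noise library, control replicates 1 and 2 by a small margin and control replicate 3 by a wide one. The means were 23.3 ± 2.74 CPM in traffic noise and 12.7 ± 9.14 CPM in control (SD, n = 3 each), with a log2 fold change of 0.88 ± 0.63 (edgeR adjusted p = 0.879). Without control replicate 3 it was 0.38 ± 0.33 (edgeR adjusted p = 0.855). TOC1 was at 0.101 times its mean of the other 5 libraries in control replicate 3, and 22% of all rows tested were as low or lower there by this measure. That share includes the 18.1% of rows at 0 in that library, where TOC1 had 37 counts. It was not matched for level. The gene that follows on the opposite strand, AT5G61390, has an annotated end 4 bases from that of TOC1. It had its own counts (41, 47 and 49 in traffic noise, 125, 11 and 0 in control).

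Among the pseudo-response regulators, PRR7 and TOC1 took nearly all reads of the family of PRR9, PRR7, PRR5, PRR3 and TOC1. TOC1 held 35.2%, 24.4% and 35.9% of them in traffic noise, against 35.4%, 43.1% and 3.77% in control. PRR7 held 62.9%, 74.0% and 62.1% in traffic noise, against 60.8%, 53.4% and 96.2% in control. Control replicate 3 stands out from the other 5 libraries, with almost the whole family on PRR7.

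GI (AT1G22770, chromosome 1) was the evenest of the tested clock genes among control libraries. It had 10.8, 16.7 and 13.1 CPM in traffic noise, against 9.42, 11.0 and 10.1 CPM in control. The lowest traffic noise library lies just under the highest control library. The log2 fold change was 0.41 ± 0.42 (edgeR adjusted p = 0.946), from means of 13.5 ± 2.97 CPM in traffic noise and 10.2 ± 0.780 CPM in control (SD, n = 3 each).

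ELF4 (AT2G40080, chromosome 2), a small protein of the evening complex, had the smallest p of the clock genes. Its levels were 6.99, 21.6 and 15.9 CPM in traffic noise, against 3.48, 7.92 and 6.45 CPM in control. Traffic noise replicates 2 and 3 lie above all control libraries, while traffic noise replicate 1 lies within their range. The means were 14.8 ± 7.37 CPM in traffic noise and 5.95 ± 2.26 CPM in control (SD, n = 3 each), with a log2 fold change of 1.32 ± 0.57 (edgeR adjusted p = 0.644). Without control replicate 3 it was 1.38 ± 0.58 (edgeR adjusted p = 0.539).

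ELF3 (AT2G25930, chromosome 2), the scaffold of the same complex, had 8.86, 10.3 and 15.1 CPM in traffic noise, against 16.7, 14.0 and 6.45 CPM in control. The groups overlap fully, since control holds both the highest and the lowest library. Its log2 fold change was -0.12 ± 0.49 (edgeR adjusted p = 0.988), and its sign was positive without control replicate 1 (0.16) and without traffic noise replicate 1 (0.04). Without control replicate 3, the lowest library, the log2 fold change was -0.43 ± 0.42 (edgeR adjusted p = 0.881). The annotated ends of ELF3 and ALPHA-VPE, a vacuolar protease gene on the opposite strand, overlap by 24 bases, and whether the counting used strand is not given in the sources used here. ALPHA-VPE had 61, 11 and 10 counts in traffic noise and 123, 16 and 0 in control, fewer than ELF3 in each library.

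The balance of the evening complex subunits also varied from library to library. ELF4 made up 44.1%, 67.7% and 51.3% of the ELF3 and ELF4 reads in traffic noise, against 17.2%, 36.2% and 50% in control. The lowest traffic noise share lies above those of control replicates 1 and 2 and below that of control replicate 3. LUX (AT3G46640), the DNA-binding subunit, had 33.7, 37.8 and 24.3 CPM in traffic noise, against 21.8, 31.4 and 12.4 CPM in control, a log2 fold change of 0.54 ± 0.39 (edgeR adjusted p = 0.874).

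The order of levels within each group put PRR7 and LHY above the evening genes. In traffic noise PRR7 (49.6 CPM on average) was followed by LHY, TOC1, ELF4, GI, ELF3, CCA1 (6.01 CPM) and PRR5 (0.768 CPM), with PRR9 at 0. The values of PRR7 lay above all those of LHY, those of ELF3 above all those of CCA1, and those of CCA1 above all those of PRR5. The neighbours from LHY to ELF3 in that order overlapped. In control LHY (38.8 CPM) was followed by PRR7, TOC1, ELF3, GI, ELF4 and CCA1 (1.93 CPM), with PRR9 and PRR5 at 0. There PRR7 lay above all TOC1 values and GI above all ELF4 values, and the other neighbours overlapped.

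As a summary of the morning against the evening components, the mean log2 CPM (prior count 2) of the 4 morning genes minus that of the 5 evening genes was taken in each library. This index was -0.617, -0.157 and -0.855 in traffic noise, against -0.261, -0.224 and -0.0627 in control. Traffic noise replicates 1 and 3 lie below all control libraries, and traffic noise replicate 2 lies within their range. The mean was -0.543 ± 0.355 in traffic noise and -0.182 ± 0.105 in control (SD, n = 3 each), a difference of -0.361 for which no test was made. PRR9 entered the index at the lowest log2 CPM, -3.29, in every library, and CCA1 did so in control replicate 3. PRR5 entered it at -0.02, -3.29 and 0.60 in traffic noise and at -3.29 in each control library. A gene with too few counts to test thus adds to the evening side of the traffic noise group. The sign of the difference in the index depended on the genes used. It was 0.205 over the 7 tested genes alone and 0.02 with PRR5 and PRR7 left out, and -1.08 without CCA1. The size of the difference also depended on single libraries, at -0.205 without traffic noise replicate 3 and -0.555 without traffic noise replicate 2. Without control replicate 3 it was -0.305. The 3 tested morning genes had log2 fold changes of both signs with a median of 0.47, and the 4 tested evening genes likewise, with a median of 0.64, beside a median of 0.05 over all rows tested. Without control replicate 3 the medians were 0.91 over 3 morning genes and 0.41 over 5 evening genes. Which class had the higher median thus depended on that library.

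LHY and TOC1 repress each other's genes, and their ratio differed widely between single libraries. LHY reached 0.633, 1.10 and 1.62 times the TOC1 level in traffic noise, against 1.95, 1.3 and 27.4 times in control. The ranges overlap, because control replicate 2 lies below traffic noise replicate 3, and control replicate 3 lies far above all others. On the log2 scale the ratio averaged 0.06 ± 0.68 in traffic noise and 2.04 ± 2.39 in control (SD, n = 3 each), a difference of -1.98 that was -0.62 without control replicate 3. In that library LHY stood at 2.13 times its mean of the other 5 libraries, and 11.4% of all rows tested were as high or higher there by this measure.

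**Figure D3:**
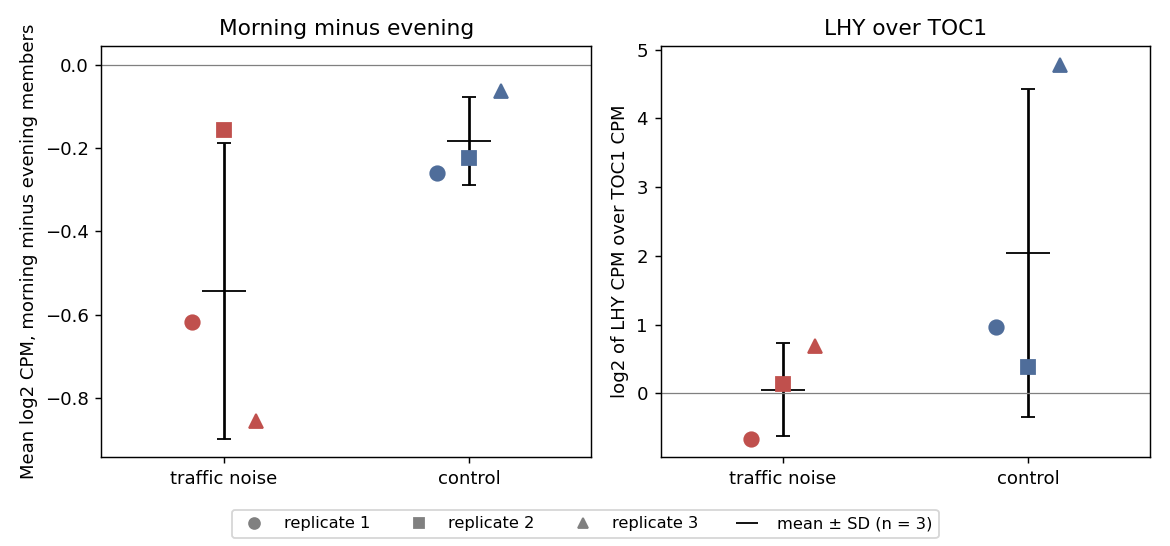
Left, mean log2 CPM of the 4 morning genes minus that of the 5 evening genes in each library; right, log2 of the LHY level over the TOC1 level, with traffic noise libraries left of control libraries and bars for the mean and SD (n = 3). The groups overlap in both panels, and control replicate 3 lies apart in the right panel, where LHY was 27.4 times TOC1.

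Beyond the core genes, 4 lists of other clock-related genes held 47 genes, of which 42 had a row tied to 1 locus and 37 were tested. In edgeR 0 of the 37 passed in either direction. At an unadjusted p under 0.05, 2 were higher (RVE4 and SKIP) and 0 lower, where 3.48% of all rows tested were higher and 3.98% lower. Positive log2 fold changes numbered 27 and negative ones 10, with a median of 0.18, beside 10040 positive and 9072 negative over all rows tested, with a median of 0.05. In 4 of the 37 every traffic noise library lay above every control library, a pattern found in 8.99% of all rows tested, so that count is near the background.

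The RVE and LNK genes encode the activators of the morning and afternoon, MYB-related factors close to CCA1 and the coactivators they recruit to evening genes. Of 9 listed, 8 were tested, 6 with positive log2 fold changes and 2 with negative ones (median 0.70; 0.62 over 8 genes without control replicate 3, with 7 positive). RVE4 had 76.0, 101 and 92.6 CPM in traffic noise, against 57.4, 53.4 and 34.6 CPM in control, with no overlap (log2 fold change 0.89 ± 0.27, edgeR adjusted p = 0.493). Its adjusted p was 0.0605 in DESeq2 and 0.294 in limma-voom, so it varied with the test. RVE5 had 23.4, 30.9 and 32.3 CPM in traffic noise, against 21, 21.5 and 13.3 CPM in control, again without overlap (log2 fold change 0.63 ± 0.34). LNK4 averaged 33.7 ± 7.79 CPM in traffic noise and 19.7 ± 6.15 CPM in control (SD, n = 3 each). LNK3 had 3.59, 5.27 and 3.96 CPM in traffic noise, against 0.442, 2.62 and 0 CPM in control, a pattern in which, as for CCA1, control replicate 3 was empty and control replicate 2 came nearest to the traffic noise libraries.

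Of the 8 other evening genes, all tested, 6 had positive log2 fold changes and 2 negative ones (median 0.19; 0.03 without control replicate 3, with 4 of each sign). The ELF4 relatives ELF4-L2, ELF4-L1 and ELF4-L3 had log2 fold changes of 0.28 ± 0.29, 0.91 ± 1.40 and -1.51 ± 2.20, and that of ELF4-L3 rests on at most 30 counts in a library. Of 11 genes for protein stability and other clock modifiers, 9 were tested, with 6 positive and 3 negative (median 0.15; 0.26 without control replicate 3). SKIP, a splicing factor that acts on clock transcripts, had 112, 98 and 80.0 CPM in traffic noise, against 57.7, 72.5 and 60.0 CPM in control, without overlap (log2 fold change 0.61 ± 0.24, edgeR adjusted p = 0.601). LWD1, a WD-repeat activator of clock genes, averaged 40.3 ± 2.60 CPM in traffic noise and 28.2 ± 11.3 CPM in control (SD, n = 3 each). The arginine methyltransferase gene PRMT5 had a log2 fold change of 0.76 ± 0.63 and XCT one of -0.62 ± 0.56. FKF1, the blue-light F-box gene of the afternoon and a relative of ZTL, had 1 count in 1 control library and 0 in the other 5 libraries.

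Genes downstream of the clock split 9 to 3 between positive and negative log2 fold changes among 12 tested of 19 listed (median 0.10; -0.02 over 13 genes without control replicate 3, with 6 positive and 7 negative). Of the list, 5 (CDF1, RVE7, GRP8, CAT2 and CAT3) share their symbol with another row and have no value here. COL2 had a log2 fold change of -1.91 ± 1.90, CDF5 one of 0.39 ± 0.44, COR27 one of 1.36 ± 1.60 and RVE1 one of 0.35 ± 0.49, and 0 of these 4 passed. GRP7, an RNA-binding protein gene under clock control, chosen here for its high level after the values were seen, averaged 1980 ± 545 CPM in traffic noise and 1960 ± 493 CPM in control (SD, n = 3 each). Its log2 fold change was 0.01 ± 0.27.

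**Figure D4:**
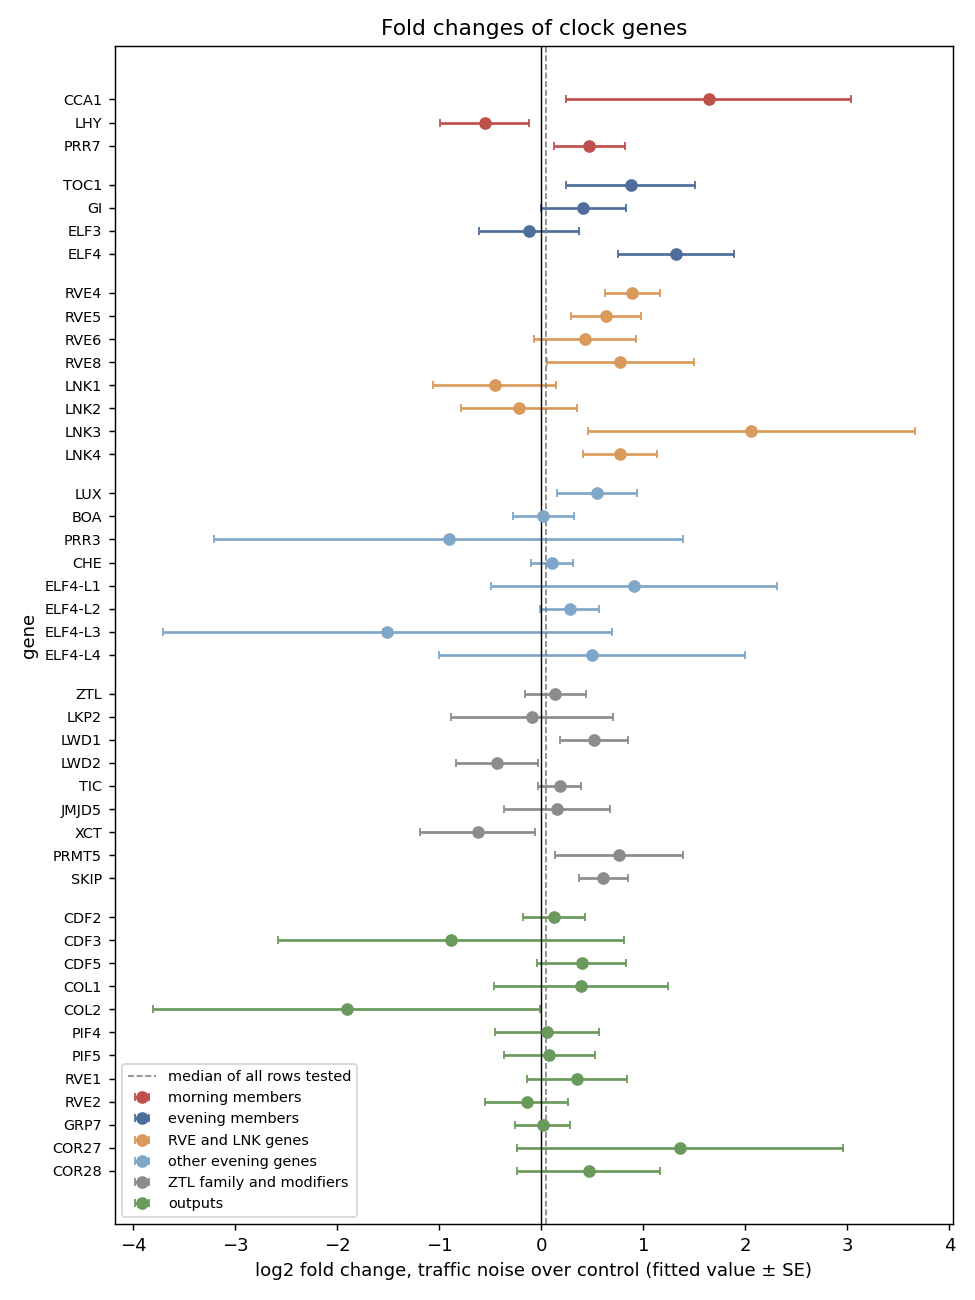
Fitted log2 fold changes of traffic noise over control, with their SE, for the 7 tested core clock genes and 37 other clock-related genes, coloured by list; the dashed line is the median of all rows tested (0.05). Points lie on both sides of 0 in each of the 6 lists, and wide bars mark genes of low counts.

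**Figure D5:**
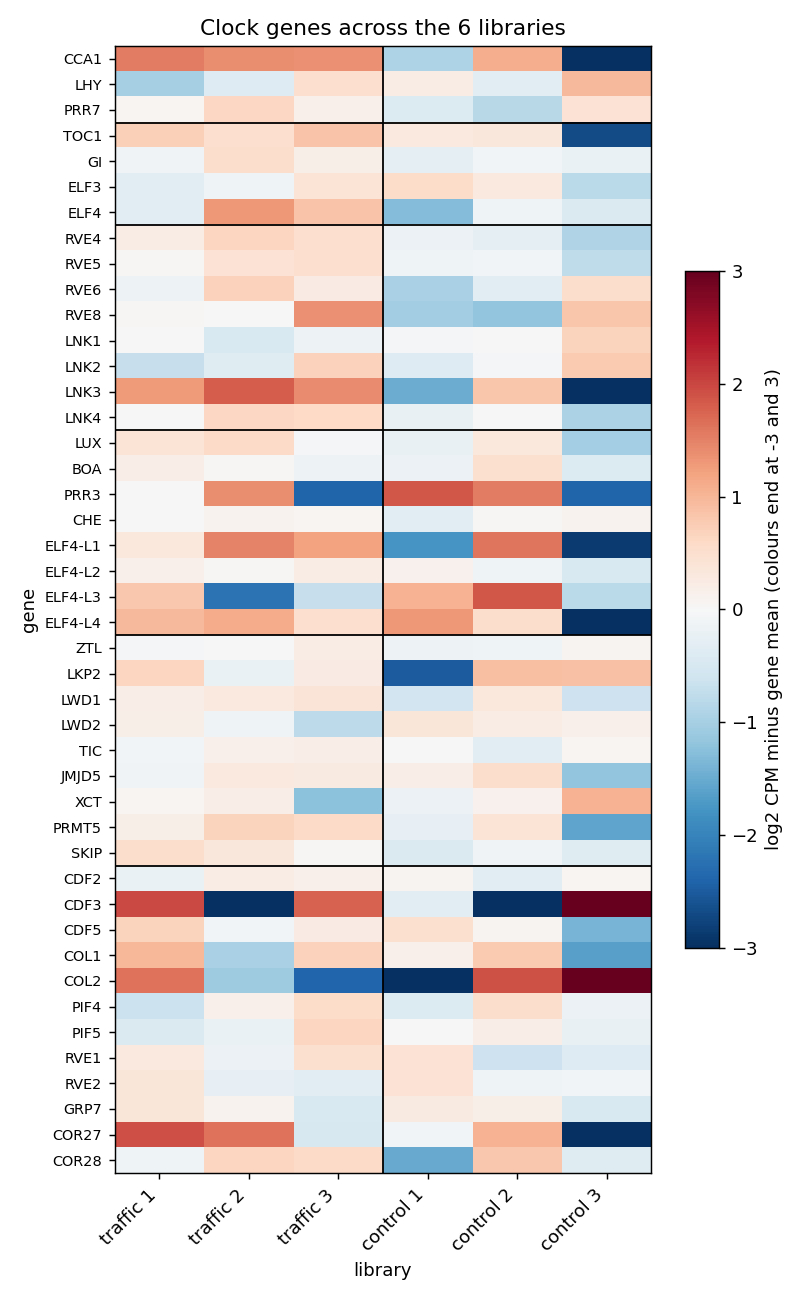
Log2 CPM (prior count 2) of the tested clock genes in each of the 6 libraries, minus the gene's mean, in the same lists divided by lines; red is above and blue below the mean, and colours end at -3 and 3. Control replicate 3, in the right column, is blue for CCA1, TOC1, LNK3, ELF4-L4 and COR27, among others. It is red for LHY, LNK1, LNK2, CDF3 and COL2, among others.

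The genes whose levels across the 6 libraries were most like those of the most abundant morning and evening member were named by the root mean square difference in log2 CPM centred on each gene. For PRR7 these were, of 5945 other genes averaging at least 20 CPM, the non-coding RNA gene AT1G69252 (0.13), AT4G30390 (0.17) and AT4G34760 (0.18), a SAUR-like gene by its annotation. AT1G69252 had 73.6, 87.4 and 65.3 CPM in traffic noise, against 46.3, 39.1 and 97.4 CPM in control. For TOC1 they were RLT2 (0.15), CRY2 (0.17), which encodes the blue-light receptor cryptochrome 2, and AT5G64180 (0.19). CRY2 had 42.5, 47.1 and 43.1 CPM in traffic noise, against 35.4, 30.4 and 4.38 CPM in control. The low value in control replicate 3 is thus part of what these genes share with TOC1.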

How the data were processed

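The authors deposited, per sample, raw whole-number counts per gene symbol with no normalization; the kit was Lexogen QuantSeq, per the labels' protocols, and Bowtie2, bedtools and TAIR10 are named in the submitters' processing notes without versions or roles. Each of the 6 tables held 33139 rows, of which 218 carried no gene name (0.0431% to 0.0886% of counts) and were left out; 32488 rows matched exactly 1 locus by symbol in RefSeq's TAIR10.1, whose nuclear chromosomes are those of TAIR10.

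The fit used all named rows, edgeR's filterByExpr, TMM factors and the robust quasi-likelihood test, adjusted by Benjamini-Hochberg at 0.05 over 19112 rows. Each standard error is the size of the log2 fold change divided by the root of the F statistic. The tested core genes reached the filter's level of 0.503 CPM in all 6 libraries, CCA1 in 5. The members and lists were chosen with earlier results of these data known. All 9 core genes are named, and from each other list every called gene or, with none called, up to 4 with the smallest p; genes named outside this rule (LHCB1.3 as a marker, BOA, FKF1 and GRP7) were picked after their values were seen. The fit was tested on simulated data with known changes, 50 rows at each size. It recovered 0% of the 2-fold, 32% of the 4-fold, 44% of the 8-fold and 60% of the 16-fold changes. Of its 74 calls, 6 were false. Apart from the known changes and library size, each row had the same mean and spread in all simulated libraries. None was built to stand apart as control replicate 3 did. Motifs were searched in the upstream windows of 27443 genes. Alternatives were other scalings, filters and tests, libraries left out and a replicate block. Software was R 4.3.3, edgeR 4.0.16, limma 3.58.1, DESeq2 1.42.0, Python 3.11.15 and matplotlib 3.10.9.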

Additional observations from a re-analysis of the deposited data

How the results depend on the processing

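None of the 7 tested clock genes passed the threshold in any alternative that gave an adjusted p, and DESeq2 gave none for 5 of the 7. CCA1, PRR7, TOC1, GI and ELF4 kept positive and LHY negative log2 fold changes in all of them; ELF3 had 0.16 without control replicate 1 and 0.04 without traffic noise replicate 1, against -0.12. With 1 library left out, log2 fold changes ran from 1.06 to 3.45 for CCA1, -1.06 to -0.14 for LHY, 0.23 to 0.91 for PRR7, 0.38 to 1.24 for TOC1, 0.25 to 0.55 for GI, -0.43 to 0.16 for ELF3 and 0.96 to 1.66 for ELF4. CCA1 did not reach a mean of 100 counts and has no value under that filter.

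The morning minus evening difference of -0.361 was 0.0228 with PRR5 and PRR7 left out, 0.205 over the tested genes and -1.08 without CCA1, and -0.555 to -0.205 with 1 library left out. The last 2 gene choices, and the libraries left out of the LHY over TOC1 difference (-2.81 to -0.62), were chosen after seeing the data. Over the whole table, 0 rows were called higher and 2 lower; these counts were 1 and 5 with no filter, 84 and 132 in DESeq2, 4 and 8 in limma-voom, and 0 to 18 and 0 to 13 with 1 library left out (18 and 13 without control replicate 2). The non-robust fit called 0 lower. The cause was not tested.

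The replicate numbers are shared between the groups, and the deviations of same-numbered libraries correlated at -0.009, 0.014 and 0.019. Those of differently numbered libraries correlated at -0.052 to 0.04. Deviations from means of 3 libraries cannot decide whether a number marks a shared plate or batch, and the labels do not say. With the replicate number as a block 0 rows were called lower, CCA1 had a log2 fold change of 2.97, and the morning minus evening difference was -0.361. CCA1, at 130 counts or fewer in each library, and PRR5, at 29 or fewer, are the clock genes most limited by depth.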

Other observations

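The evening element also stood before genes of the other clock lists. It was found in the 250-base window of 2 of the 8 other evening genes (LUX and BOA), 6 of the 19 genes downstream of the clock (COL2, RVE7, GRP7, GRP8, COR27 and CAT3), 1 of the 11 modifiers (FKF1) and 0 of the 9 RVE and LNK genes, against 2.36% of all windows. GRP7 held 3 copies. The G-box did not follow the morning and evening classes as closely in these lists. It was found in 3 of the 9 RVE and LNK genes (RVE3, RVE5 and LNK3) and in 2 of the 8 other evening genes. Of the 19 genes downstream of the clock 4 held it, and of the 11 modifiers 0, against 6.49% of all windows. The 2 other evening genes were LUX and BOA, related MYB-like factors, each with a G-box beside the evening element. LUX is given above, and BOA averaged 47.8 ± 5.68 CPM in traffic noise and 47.2 ± 15.7 CPM in control (SD, n = 3 each). So genes with the evening element included some of high level (GRP7) and some at or near 0 counts (FKF1) in the same libraries.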
